A study of Anableps anableps with 8 samples.

Results

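The genes described here encode the subunits of voltage-gated calcium channels. They are all genes of the deposited gene table whose symbol starts with cacna, cacnb or cacng, whatever the case of the letters, and there are 47 of them among 22934 genes. They carry 37 symbols, because 8 symbols stand for more than 1 gene and cover 18 of the 47. Such copies are given with their identifiers, and reads that fit more than 1 copy may have been split between them.

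A voltage-gated calcium channel opens when the membrane of a cell depolarizes and lets calcium in. Its pore is the α1 subunit, and the α2δ and β subunits bring the pore to the membrane and tune its opening. In mammals most γ genes encode proteins that accompany AMPA-type glutamate receptors (TARPs) and have little to do with the pore. Photoreceptors and bipolar cells release glutamate continuously at ribbon synapses, and in mouse and human this release depends on L-type channels, above all on the product of CACNA1F in rods. Amacrine and ganglion cells release transmitter at conventional synapses, which use P/Q-type (CACNA1A) and N-type (CACNA1B) channels in many neurons.

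Nuclei came from whole retinas of adult Anableps anableps, a fish that lives at the water surface and looks into air and water at once. Their RNA was sequenced nucleus by nucleus after barcoding in successive rounds of wells. There is no treatment or mutant, and all groups below are classes of nuclei of the same untreated tissue. The series describes 5 biological replicates and its labels describe 8 sublibraries of a single pool, but the gene-level matrix carries 2 retina names that match no label. These are called retina 1 and retina 2. Many levels are given for each of them, and others are pooled over both. No test was made, since nothing says that they are separate animals.

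The matrix gave 6430 nuclei with at least 500 transcript counts (unique molecular identifiers, UMIs), 3221 in retina 1 with a median of 3787 UMIs and 3209 in retina 2 with a median of 4082. Clustering left out the calcium channel genes, and clusters took their names from markers, so a name such as rod-like states a resemblance. In 5040 nuclei the markers fitted 1 of 8 classes, 1160 stayed unnamed and 230 belonged to other classes. Many barcodes of the inner retina also held rod or cone transcripts. A nucleus was called admixed, and left out, when rod or cone markers in it exceeded 10% of the level typical (median) for rods or cones. This removed 19.1% of rod-like and 1.14% of cone-like nuclei, but 76.5% of bipolar-like, 82.7% of amacrine-like, 69.9% of horizontal-like and 62.1% of ganglion-like nuclei. It also removed 49.2% of Müller glia-like and 51.0% of retinal pigment epithelium-like (RPE-like) nuclei. Median depth fell with it, from 4771 to 1610 UMIs in bipolar-like and from 12068.5 to 2995.5 UMIs in amacrine-like nuclei. In horizontal-like nuclei it fell from 6127 to 3230 UMIs and in ganglion-like nuclei from 7758.5 to 3940 UMIs. Amacrine-like nuclei kept 399460 of 17252607 UMIs and bipolar-like nuclei 137548 of 2373125. The remaining 3461 nuclei were 1216 rod-like, 1567 cone-like, 67 bipolar-like, 96 amacrine-like, 37 horizontal-like, 50 ganglion-like, 225 Müller glia-like and 203 RPE-like. In the classes other than photoreceptors they held rod markers at 1.27% to 2.43% of the rod level and cone markers at 1.07% to 2.75% of the cone level. The filter used these same markers, so the low shares follow from it and do not measure the photoreceptor RNA that remained. Among the nuclei, 99 combinations of wells occurred in both sublibraries of the matrix, each time with the same retina name.

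Levels are given in CPM, a gene's UMIs scaled to a fixed total of UMIs for its class. They are compared between classes for the same gene only, because gene lengths were not at hand. Intervals are 95% intervals that cover counting error only. In the text, a gene is called higher or lower in a group when its level differed at least 2-fold in the same direction in each retina, with at least 10 UMIs over both sides and at least 3 on the higher side in each.

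Of the 47 genes, 26 had at least 100 UMIs over the 8 classes, 16 had 1 to 99 and 5 had none. Among the 26, the highest level lay in ganglion-like nuclei for 8, amacrine-like for 6, rod-like for 4, cone-like for 3, horizontal-like for 3 and bipolar-like for 2. In no case was it in Müller glia-like or RPE-like nuclei. For 24 of the 26 it was the same class in both retinas. Together the 47 genes took 1.03% of the UMIs of cone-like, 0.939% of amacrine-like, 0.923% of rod-like and 0.916% of ganglion-like nuclei. They took 0.642% in bipolar-like and 0.518% in horizontal-like nuclei, against 0.0628% in Müller glia-like and 0.0850% in RPE-like nuclei. Of 73 pairs of a gene and a class with at least 20 UMIs in each retina, 56 agreed within 1.5-fold. All 7 did so in rod-like nuclei, 10 of 11 in cone-like, all 8 in bipolar-like and 5 of 13 in ganglion-like nuclei, where the largest gap was 2.96-fold.

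**Figure D1:**
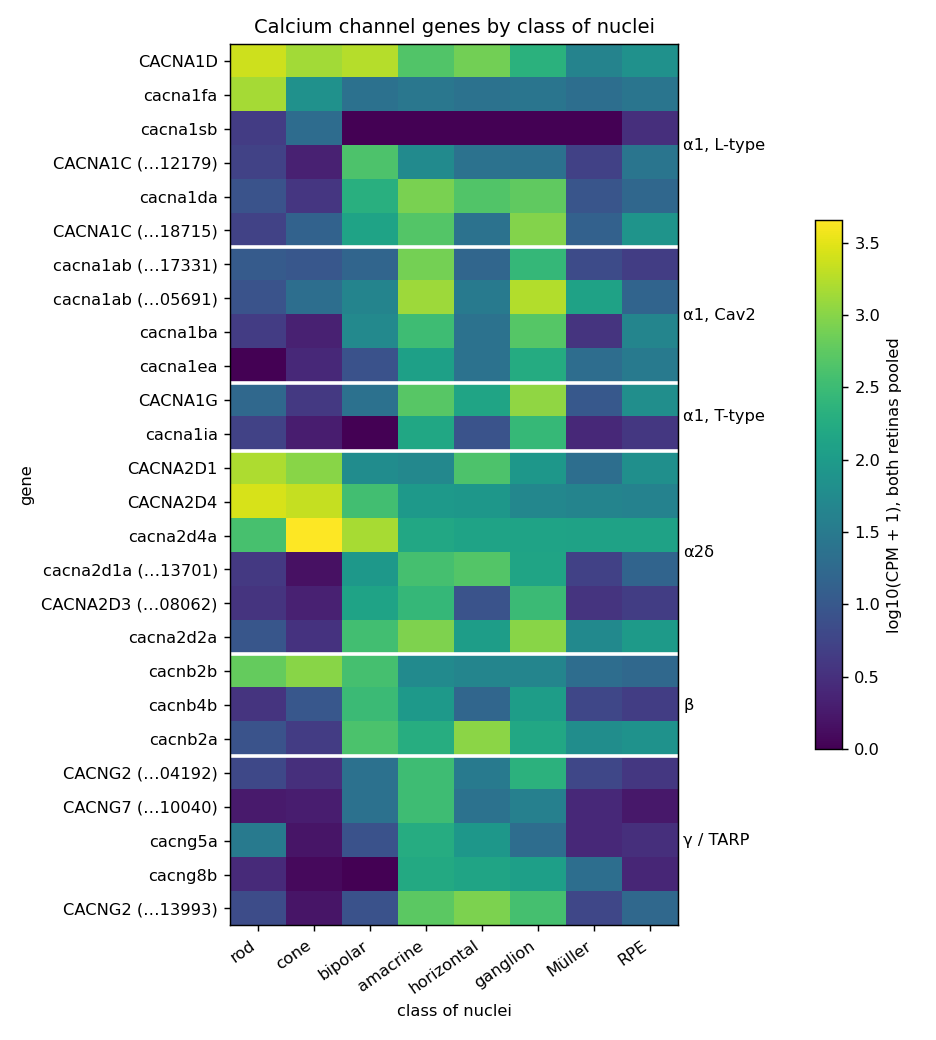
Level of each calcium channel gene with at least 100 UMIs (rows, grouped by subunit) in the 8 classes of nuclei (columns), as log10(CPM + 1) of both retinas pooled, with admixed nuclei left out. CACNA1D, cacna1fa, CACNA2D1, CACNA2D4, cacna2d4a and cacnb2b are bright in the rod or cone column, and most of the other genes in the inner retinal columns. No row has its highest level in the Müller or RPE column. Some inner retinal genes are darker in rods and cones than in RPE, such as cacna2d2a at 8.58, 2.38 and 97.3 CPM.

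The split between photoreceptors and inner retinal neurons took in nearly all genes that could be compared. The mean level of rod-like and cone-like nuclei was set against the mean of bipolar-like, amacrine-like, horizontal-like and ganglion-like nuclei. Of the 47 genes, 33 had enough UMIs, and 6 of these were higher and 26 lower in photoreceptors. Many of the 26 met the UMI minimum through inner neurons alone, so their direction was largely set by the rule. Over all 12500 genes with enough UMIs, 14.7% were called higher and 22.1% lower. The median log2 ratio was −5.82 over the 33 genes and 0.12 over all genes. The 6 genes called higher were the L-type pore genes cacna1fa and CACNA1D, the α2δ genes CACNA2D1, CACNA2D4 and cacna2d4a, and the β gene cacnb2b, so that pore, α2δ and β genes were all among them.

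The retina-specific L-type pore gene cacna1fa marked rods off from all other classes. Rod-like nuclei held 1396 CPM in retina 1 and 1510 CPM in retina 2, against 64.1 and 73.1 CPM in cone-like nuclei. Rods and cones did not overlap, and the log2 ratio of rod-like over cone-like nuclei was 4.41 (4.28 to 4.54), and the single retinas gave 4.44 and 4.37. In the other 6 classes it was at most 27.5 CPM, pooled over retinas, or 1.37% to 1.89% of the rod level and close to the share of rod markers in these classes. In cone-like nuclei it was 4.70% of the rod level, where rod markers stood at 0.896%. The filter held the marker shares low in all these classes, so they do not tell own expression from carried-over RNA. After each nucleus was thinned to 1000 UMIs, cacna1fa was found in 73.5% of 1001 rod-like nuclei (95% Wilson interval 70.7% to 76.2%) and in 5.91% of 1557 cone-like nuclei (4.84% to 7.19%). In Müller glia-like nuclei, taken as a class that should lack the gene, it was found in 1.81% of 221. Without thinning the shares were 83.4%, 23.5% and 6.67%, at median depths of 1545.5, 4531 and 4352 UMIs. All 5 rod-like clusters held it, at 1140 to 1607 CPM.

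CACNA1D, which encodes the other L-type pore of sensory ribbon synapses and is used by mouse hair cells and many neurons, was shared by rods, cones and bipolar cells. Rod-like nuclei held 2319 and 2404 CPM, bipolar-like nuclei 1814 and 1745, cone-like nuclei 1434 and 1407 and horizontal-like nuclei 772 and 755, in retina 1 and retina 2. Amacrine-like nuclei followed with 643 and 315 CPM and ganglion-like nuclei with 248 and 178. The order of the first 4 classes was the same in both retinas, and Müller glia-like and RPE-like nuclei were lowest with at most 85.3 CPM. Between rods and cones the log2 ratio was 0.73 (0.69 to 0.78), short of 2-fold. CACNA1D made up 91.0% of the α1 UMIs of cones and 60.9% of those of rods, where cacna1fa made up 37.5%. The shares depend on how well each gene is captured and are set here only between classes.

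Taken as 1 class, cones were marked by the α2δ gene cacna2d4a, a relative of the human gene CACNA2D4, whose loss causes a cone dystrophy. Its level differed widely between cone types, and cones with a dominant long-wave opsin fell below bipolar-like nuclei, as given further on. Cone-like nuclei held 4417 CPM in retina 1 and 4626 CPM in retina 2, against 400 and 389 CPM in rod-like nuclei. Again the classes did not overlap, and the log2 ratio of rod-like over cone-like nuclei was −3.52 (−3.62 to −3.42). Bipolar-like nuclei held 1481 and 1562 CPM, which is 33.6% of the cone level, while cone markers stood there at 1.16%. The filter on these markers bounded that share, so it does not tell own expression from carried-over RNA. Amacrine-like, horizontal-like, ganglion-like, Müller glia-like and RPE-like nuclei lay between 125 and 153 CPM, 2.77% to 3.38% of the cone level. In rods cacna2d4a stood at 8.72% of the cone level and cone markers, likewise bounded by the filter, at 3.16%. In nuclei thinned to 1000 UMIs it was found in 75.0% of cone-like, 64.2% of bipolar-like, 25.1% of rod-like and 12.7% of Müller glia-like nuclei. Without thinning the shares were 89.0%, 70.1%, 32.2% and 25.3%.

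The gene with the symbol CACNA2D4 itself was high in both rods and cones. It stood at 2735 and 2615 CPM in rod-like and at 2162 and 2113 CPM in cone-like nuclei, a log2 ratio of 0.32 (0.28 to 0.36). Bipolar-like nuclei held 346 and 352 CPM, and all other classes were at 108 CPM or less in each retina. CACNA2D1, a widely used α2δ gene and in mammals the target of gabapentin, held 1585 and 1594 CPM in rods and 1007 and 1029 CPM in cones. In horizontal-like nuclei it held 526 and 351 CPM, where bipolar-like and amacrine-like nuclei were at 61.2 CPM or less. The β gene cacnb2b held 605 and 635 CPM in rods, 996 and 1017 CPM in cones and 346 and 398 CPM in bipolar-like nuclei. It made up 97.7% of the β UMIs of rods and 98.7% of those of cones, against 32.1% in bipolar-like and 6.64% in ganglion-like nuclei. In mouse, the β gene Cacnb2 is the one that photoreceptor synapses need.

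**Figure D2:**
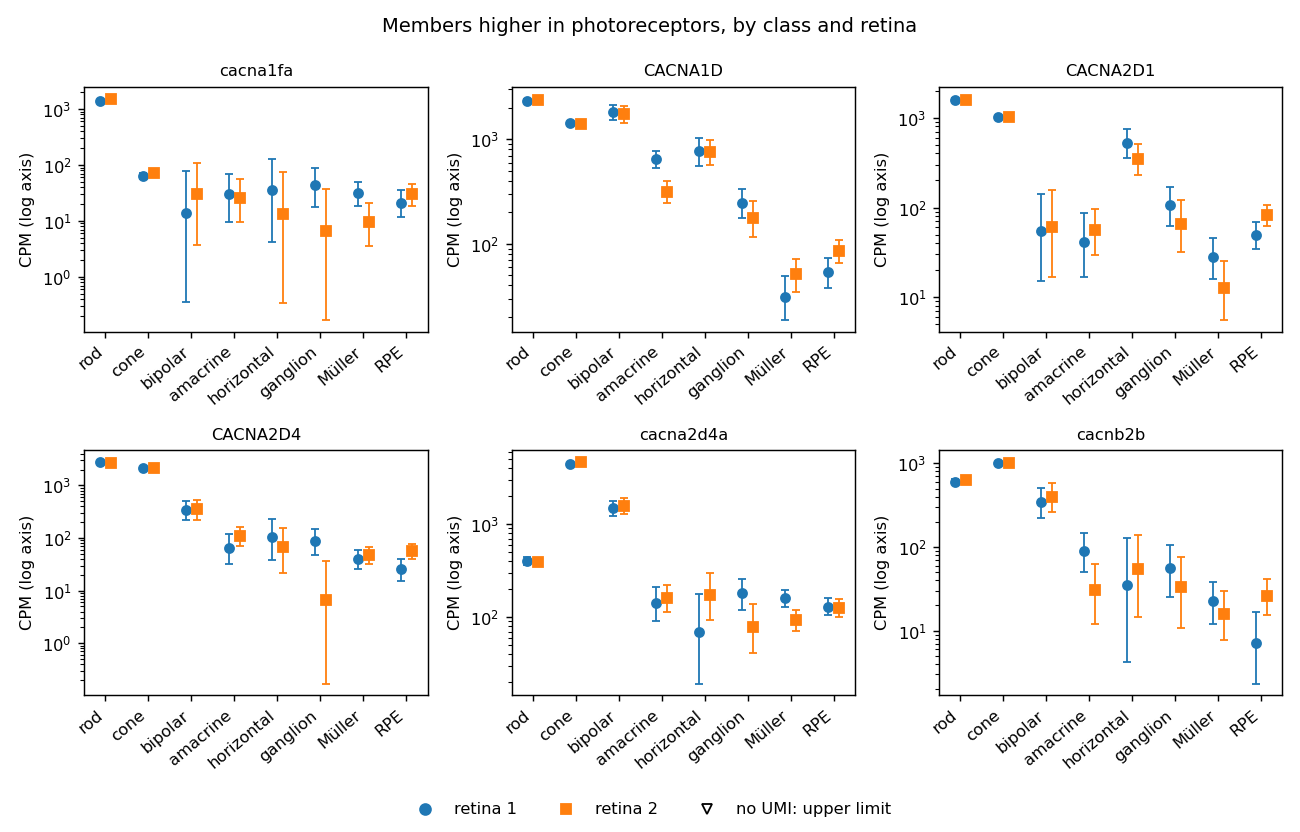
Levels in CPM (log axes) of the 6 genes higher in photoreceptors, by class of nuclei, with 1 point for each retina and 95% Poisson intervals. The cacna1fa panel has a single peak in rods, at 1396 and 1510 CPM, the cacna2d4a panel peaks in cones, at 4417 and 4626 CPM, with bipolar-like nuclei next, and CACNA2D1 stands at 526 and 351 CPM in horizontal-like nuclei.

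Against the mean of the other 7 classes, 5 of the 33 genes were higher and 26 lower in rod-like nuclei, where 10.4% of all genes were called higher and 31.5% lower. In cone-like nuclei 5 were higher and 27 lower, against 11.2% and 32.5%. Many of the genes called lower in rods or in cones met the UMI minimum through the other classes alone, so their direction was largely set by the rule. Rods and cones were then compared directly. Of the 17 genes with enough UMIs, 5 were higher and 4 lower in rod-like nuclei, where 13.9% of all 11076 genes were called higher and 15.3% lower. Apart from cacna1fa and cacna2d4a these were genes of low level in both. The TARP gene cacng5a stood out among them, with 24.9 and 36.8 CPM in rod-like nuclei and 0.702 and 0.484 CPM in cone-like nuclei, a log2 ratio of 5.72 (4.43 to 7.38) from 73 against 5 UMIs. The classical skeletal muscle pore gene cacna1sb, an L-type gene, had 0.924 and 5.61 CPM in rods and 19.9 and 17.9 CPM in cones, a log2 ratio of −2.46 (−3.70 to −1.45). No UMI of cacna1sb was seen in bipolar-like, amacrine-like, horizontal-like, ganglion-like or Müller glia-like nuclei, which allows (3 UMIs of the total) up to 2.50 CPM in Müller glia-like but 21.8 CPM in bipolar-like nuclei. Called higher in rods as well were the T-type pore gene CACNA1G (16.3 against 3.09 CPM), cacna2d2a (8.58 against 2.38) and cacnb2a (7.72 against 3.45). CACNA1C ENSABLG00000018715 (4.29 against 12.97) and cacnb4b (2.57 against 8.68) were called lower in rods. In barcodes with fewer than 100 UMIs, which hold mostly free RNA, CACNA1G stood at 105 CPM, cacna2d2a at 150, cacnb2a at 82.4, CACNA1C ENSABLG00000018715 at 87.2 and cacnb4b at 19.7 CPM. All 5 thus lay below the free RNA level in both rods and cones. Median depth was 1545.5 UMIs in rods and 4531 UMIs in cones, and the part of free RNA and depth in these 5 results was not tested.

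Genes of the ribbon synapse and of calcium handling were compared between rods and cones in the same way. Of 43 genes of the ribbon and active zone list, 27 had enough UMIs, 8 were higher in rods and 4 lower, against 13.9% higher and 15.3% lower over all genes. CABP4 ENSABLG00000008752, whose product binds the photoreceptor L-type channel in mouse, had 1052 CPM in rod-like and 3.33 CPM in cone-like nuclei, a log2 ratio of 8.30. RIMS3 ENSABLG00000009243, a scaffold gene of the active zone, had a log2 ratio of 7.19, and ERC1 ENSABLG00000022263, another scaffold gene, one of −3.37. Among 12 genes of channel partners, 4 had enough UMIs. REM2, which encodes a small GTPase that binds β subunits, was higher in rods (854 against 37.5 CPM), and STAC2 ENSABLG00000003814, whose family holds L-type channels in the membrane, was lower (4.72 against 351 CPM). NALCN, a sodium leak channel gene, was lower too (82.8 against 484 CPM). Of 15 genes of calcium extrusion, 11 had enough UMIs, 5 were higher in rods and 2 lower, against the same shares over all genes. The exchanger gene SLC24A2 ENSABLG00000012575, the cone-type sodium, calcium and potassium exchanger, had 7.72 CPM in rods and 1159 CPM in cones.

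Cones were next grouped by the opsin that made up at least 80% of their opsin UMIs, with at least 2 such UMIs. There were 143 sws1-dominant (ultraviolet or violet), 148 sws2-dominant (blue), 76 lws-dominant (long-wave) and 720 rh2-dominant (green) cones, and 480 cone-like nuclei had no dominant opsin. Few of the calcium channel genes were called between them, and cacna2d4a formed a series over all 4 types. The gene cacna2d4a held 13718 CPM in retina 1 and 13829 CPM in retina 2 in sws1-dominant cones, 6230 and 6327 in sws2-dominant cones, 771 and 879 in lws-dominant cones and 2618 and 2632 in rh2-dominant cones. The 4 ranges did not overlap. Against rh2-dominant cones the log2 ratios were 2.39 (2.35 to 2.43) for sws1, 1.26 (1.21 to 1.31) for sws2 and −1.67 (−1.83 to −1.52) for lws. Median depth was 4429 UMIs in rh2-dominant cones and 5253 to 5421 UMIs in the other 3.

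The comparisons with rh2-dominant cones share those nuclei and are therefore not independent. For sws1, 2 of 11 genes with enough UMIs were higher and none lower, against 5.11% higher and 6.29% lower over all genes. For sws2, 1 of 10 was higher and none lower, against 2.68% and 3.21%. For lws, 1 of 10 was higher and 1 lower, against 2.13% and 2.57%. The other photoreceptor genes kept close levels over the 4 types. CACNA2D4 lay between 1869 and 2387 CPM in every type and retina, CACNA1D between 1202 and 1530, CACNA2D1 between 916 and 1356, and cacnb2b between 771 and 1177. cacna1fa lay between 55.3 and 109 CPM.

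Within rh2-dominant cones, those with at least 80% of their rh2 UMIs from the copy ENSABLG00000007605 differed from those of the copy ENSABLG00000007592. The gene cacna2d4a held 2927 and 3254 CPM in the 447 cones of ENSABLG00000007605 and 2055 and 1799 CPM in the 252 cones of ENSABLG00000007592. The gap was wider for cacna1fa, with 82.3 and 102 CPM in cones of ENSABLG00000007605 and 19.8 and 28.6 CPM in cones of ENSABLG00000007592. The cones of ENSABLG00000007592 thus had the lowest cacna1fa level of these cone groups, at the level of the non-photoreceptor classes. CACNA1D (1495 and 1621 against 1479 and 1417 CPM) and CACNA2D4 (2241 and 2204 against 2262 and 2158 CPM) were close in the 2 kinds of rh2 cones.

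The P/Q-type pore gene cacna1ab ENSABLG00000005691, highest in ganglion-like and amacrine-like nuclei and next in Müller glia-like nuclei (126 CPM pooled), was found in lws-dominant cones. These held 115 and 70.2 CPM, against 9.63 and 12.1 CPM in rh2-dominant cones. The log2 ratio was 3.12 (2.46 to 3.78), from 42 against 40 UMIs. The 42 UMIs came from 26 of the 76 nuclei, and at most 4 came from 1 nucleus. The part of free RNA in these levels was not tested. Sws1-dominant and sws2-dominant cones were at 4.42 to 14.9 CPM. Of the 76 lws-dominant cones, 72 fell into the same cluster as 71 rh2-dominant ones. Within it cacna1ab ENSABLG00000005691 stood at 101 CPM in the lws-dominant cones, against 25.1 CPM in the rh2-dominant ones, and cacna2d4a at 523 against 1162 CPM, so both differences kept their direction there. Summed amacrine markers stood at 1418 CPM in all lws-dominant cones, against 1981 CPM in all rh2-dominant ones and 5427 CPM in amacrine-like nuclei. CACNA1C ENSABLG00000018715 was higher in sws1-dominant cones, with 49.6 and 31.0 CPM against a pooled 5.92 CPM in rh2-dominant cones. The log2 ratio was 2.73 (1.90 to 3.58), from 32 against 22 UMIs, and was 2.71 and 2.95 in the single retinas. A single nucleus gave 8 of the 32 UMIs. The levels in sws1-dominant and rh2-dominant cones lay below the free RNA level given for this gene above, and the part of free RNA was not tested.

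**Figure D3:**
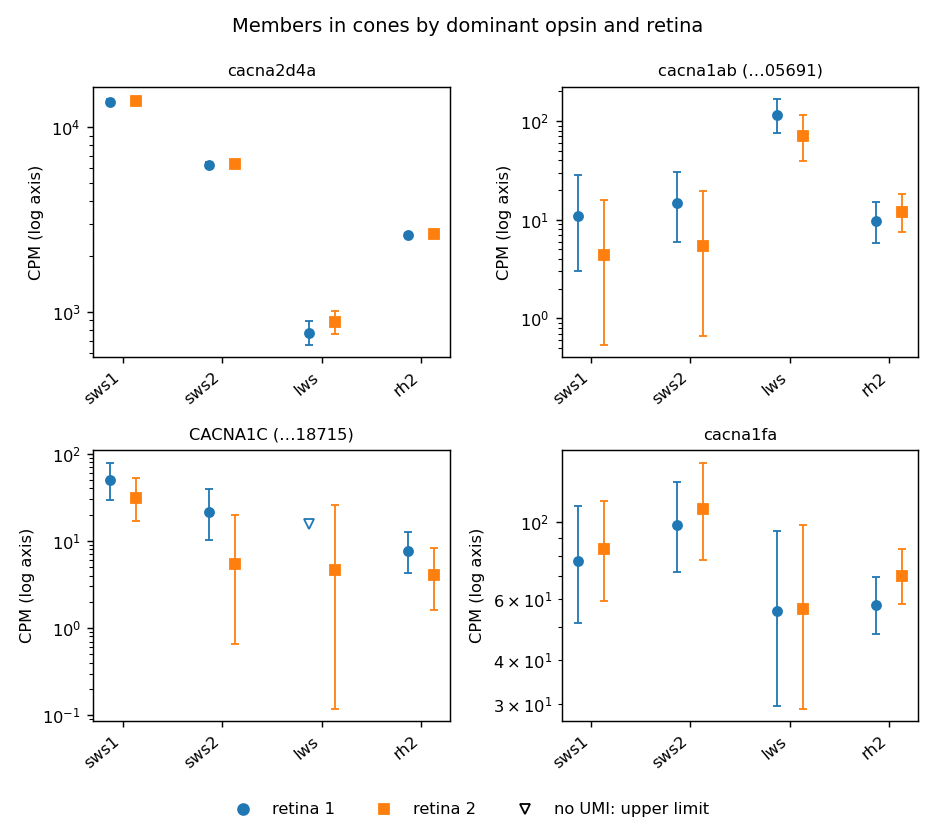
Levels in CPM (log axes) of 4 calcium channel genes in cones by dominant opsin, with 1 point for each retina, 95% Poisson intervals, and open triangles for the upper limit where no UMI was seen. The cacna2d4a panel steps down through sws1, sws2, rh2 and lws cones with both retinas together, and cacna1ab ENSABLG00000005691 stands apart in lws cones, at 115 and 70.2 CPM.

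The title of the series asks about the ventral retina, so cone-like nuclei were also split by transcription factor genes that mark the dorsal (tbx5) and ventral (vax) retina of vertebrates. Of the 11 calcium channel genes with enough UMIs, 1 was higher and none lower in the 108 tbx5-marked cones relative to the 488 vax-marked cones, where 2.09% of all genes were called higher and 2.45% lower. The 1 gene was cacna1ab ENSABLG00000005691, with 63.2 and 25.1 CPM for tbx5-marked cones, against 9.50 and 8.18 CPM for vax-marked cones. The log2 ratio was 2.28 (1.48 to 3.10) from 32 against 25 UMIs, and the part of free RNA was not tested. Most lws-dominant cones with a position marker were tbx5-marked, 15 against 2. Without lws-dominant cones the levels were 29.2 CPM with tbx5 and 7.43 CPM with vax, from 19 against 21 UMIs. In the cluster shared by lws-dominant and rh2-dominant cones they were 84.2 CPM with tbx5 and 37.8 CPM with vax. With both retinas pooled, the log2 ratios of the 6 photoreceptor genes ran from −0.28 for cacnb2b to 0.47 for cacna1fa.

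The cones with a position marker differed in their opsins, with 22 sws1-dominant and 11 rh2-dominant nuclei among the tbx5-marked ones, against 53 and 260 among the vax-marked ones. Since cacna2d4a differed between opsin types, it was also set side by side within each type. In rh2-dominant cones it held 927 and 869 CPM with tbx5, against 2978 and 3039 CPM with vax. In the 4 sws2-dominant cones with tbx5 it held 1638 and 2085 CPM, against 7510 and 7253 CPM in the 42 with vax. In sws1-dominant cones it held 12217 and 11506 CPM with tbx5, against 15004 and 14495 CPM with vax. Only 2 lws-dominant cones carried vax, and that type was not compared. In each of the other 3 types cacna2d4a was lower with tbx5 in both retinas, without overlap. Over all opsin types pooled, its log2 ratio was −0.16 (−0.21 to −0.11). A single nucleus gave 31.8% of the UMIs of the rh2-dominant cones with tbx5. Over all cones with a position marker, cacna2d4a was found in 66 of the 108 tbx5-marked and 480 of the 488 vax-marked nuclei, at median depths of 6088.5 and 4809 UMIs.

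In the inner retina, amacrine-like and ganglion-like nuclei held the pore, α2δ and β families mostly through other genes than photoreceptors. Bipolar-like nuclei also held CACNA1D, cacna2d4a and cacnb2b, at a pooled 1781, 1519 and 371 CPM, and horizontal-like nuclei held CACNA1D at 762 CPM. Of the 33 genes with enough UMIs, 4 were higher and 7 lower in bipolar-like nuclei than in the mean of the other 7 classes, against 4.57% higher and 7.48% lower over all 13819 genes. CACNA1D was one of the 4, with a log2 ratio of 1.23. CACNA1C ENSABLG00000012179, an L-type pore gene known in mammals from heart and brain, was the most bipolar of them, with 374 and 490 CPM in bipolar-like nuclei. The next class, amacrine-like, had 71.4 and 43.2 CPM, and the log2 ratio over the other 7 classes was 4.48 (4.28 and 4.63). In all, 18 of the 67 bipolar-like nuclei carried a UMI of it. The largest bipolar cluster, of 58 nuclei, held 53 of its 59 UMIs.

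The β gene cacnb4b was called higher in bipolar-like nuclei too, at 277 and 337 CPM and a log2 ratio of 3.16. Its 42 UMIs came from 9 nuclei, and 39 of them from the 9 bipolar-like nuclei outside the largest cluster, where the level was 935 CPM against 31.3 CPM in the largest cluster. CACNA2D4 was split the same way, at 671 and 209 CPM. CACNA1D went in the opposite direction, with 456 CPM outside the largest cluster and 2358 CPM in it. The fourth gene, CACNB1, a β gene of skeletal muscle in mammals, rested on 8 UMIs. The bipolar-like class was named on few markers, since the largest cluster met only 3 of them, and 285 nuclei were in the class before admixed ones were left out. Summed bipolar markers stood at 5714 CPM in bipolar-like nuclei, but at 12715 CPM in RPE-like and 3709 CPM in rod-like nuclei.

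Of the α2δ genes high in cones, CACNA2D1 and CACNA2D4 were called lower in bipolar-like nuclei than in the mean of the other 7 classes, with log2 ratios of −3.00 and −1.07, and cacna2d4a was not called, with 0.93. The β gene cacnb2b was not called either, with 0.52. In the largest cluster cacna2d4a stood at 1847 CPM and cacnb2b at 480 CPM. The β gene cacnb2a, a second relative of mammalian CACNB2, held 457 and 367 CPM over all bipolar-like nuclei, and cacna2d2a held 305 and 413 CPM. On the ribbon list, 8 of 39 genes with enough UMIs were higher in bipolar-like nuclei and 6 lower, against 4.57% and 7.48% over all genes. The calcium sensor gene cabp2a was the most bipolar of these, at 487 CPM against 15.2 CPM in the mean of the other 7 classes.

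Amacrine-like nuclei had the most members called higher. Of the 33 genes, 19 were higher and 5 lower than in the mean of the other 7 classes, against 6.48% higher and 9.06% lower over all genes, and the median log2 ratio was 1.69 against −0.03. Some of the 19 met the UMI minimum only with amacrine-like UMIs, so their direction was partly set by the rule. In retina 1 these included CACNG3 (17 against 7 UMIs in the other classes) and CACNA2D3 ENSABLG00000020734 (14 against 3). The comparisons of a class with the other 7 share their nuclei with each other and are not independent. Both copies of the P/Q-type pore gene were among the 19. The copy cacna1ab ENSABLG00000017331 held 952 and 661 CPM in amacrine-like nuclei and 403 and 125 CPM in ganglion-like nuclei, with a log2 ratio over the other 7 classes of 4.07. The copy cacna1ab ENSABLG00000005691 held 738 and 1772 CPM in amacrine-like nuclei, where 1 nucleus of 96 gave 27.3% of the UMIs.

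The L-type pore gene cacna1da, the partner of CACNA1D among the teleost copies, had its highest level in amacrine-like nuclei, at 976 and 739 CPM. Ganglion-like nuclei followed at 490 and 660 CPM and horizontal-like nuclei at 421 and 485, against at most 9.61 CPM in rod-like and 2.81 CPM in cone-like nuclei. CACNA1D was thus high where cacna1da was near its lowest, in rods and cones, while bipolar-like, amacrine-like, horizontal-like and ganglion-like nuclei held both. The N-type pore gene cacna1ba held 393 and 294 CPM in amacrine-like and 645 and 330 CPM in ganglion-like nuclei. The R-type pore gene cacna1ea reached 286 CPM in amacrine-like nuclei of retina 1 and had no UMI in retina 2, with 48 UMIs from 2 nuclei.

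Of the α2δ genes, cacna2d2a led in amacrine-like nuclei with 45.4% of the α2δ UMIs, at 833 and 912 CPM, and in ganglion-like nuclei with 57.8%, at 1334 and 699 CPM. CACNA2D3 ENSABLG00000020734 was highest in amacrine-like nuclei, at 83.3 and 138 CPM against 12.4 and 66.0 CPM in ganglion-like nuclei, and 1 nucleus gave 30.4% of its 46 UMIs. The copy CACNA2D3 ENSABLG00000008062 was found in amacrine-like (190 and 337 CPM), ganglion-like (217 and 409 CPM) and bipolar-like nuclei (194 and 61.2 CPM). Single nuclei gave 42.3% of its UMIs in ganglion-like and 61.1% in bipolar-like nuclei. The third copy, CACNA2D3 ENSABLG00000019069, had 1 UMI.

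Of the 18 γ genes, 7 had enough UMIs in the comparison of photoreceptors with inner neurons, and all 7 were lower in photoreceptors, where 22.1% of all genes were. They were both copies of CACNG2, both of CACNG7, CACNG3, cacng8b and cacng5a. CACNG3 (3 photoreceptor against 56 inner UMIs) and CACNG7 ENSABLG00000006193 (1 against 47) met the UMI minimum through inner neurons alone. For such genes the direction was largely set by the rule, unlike for cacng5a (78 against 90). Of the 7, cacng5a was not called against the other 7 classes in rods, with 31.3 CPM there and a log2 ratio of −0.43. CACNG7 ENSABLG00000010040 held 274 and 380 CPM in amacrine-like nuclei and at most 43.4 CPM in any other class and retina, a log2 ratio of 4.75. CACNG3 held 101 and 104 CPM in amacrine-like nuclei, and cacng5a held 220 and 151 CPM. CACNG2, the stargazin gene, was present as 2 copies that differed in their highest class. CACNG2 ENSABLG00000013993 held 824 and 890 CPM in horizontal-like and 476 and 596 CPM in amacrine-like nuclei. CACNG2 ENSABLG00000004192 held 446 and 246 CPM in amacrine-like nuclei and 0 and 53.9 CPM in horizontal-like nuclei. AMPA receptor genes lay on the same side: of 11 with enough UMIs, 10 were lower in photoreceptors than in inner neurons and none higher, against 22.1% and 14.7% over all genes.

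Amacrine-like nuclei came mainly from 2 clusters that used different members. The cluster led by the cholinergic genes SLC5A7 and CHAT had 17 nuclei, and the cluster led by cdh7b and the GABA transporter gene slc6a1b had 73. In the cholinergic cluster cacna1ab ENSABLG00000005691 stood at 86.3 CPM and cacna2d1a ENSABLG00000013701 at 7.85 CPM, against 2131 and 606 CPM in the other cluster. The N-type gene cacna1ba (47.1 against 516 CPM) and the T-type gene CACNA1G (149 against 692 CPM) also lay lower in the cholinergic cluster, and CACNA1D lay higher (801 against 295 CPM), with 38.2% of its UMIs there from 1 nucleus. These values describe clusters formed on the other genes of the same nuclei, and no difference was tested.

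Horizontal cells stood apart by their β gene. Of the 33 genes, 4 were higher and 11 lower in horizontal-like nuclei, against 3.93% and 7.77% over all genes. The β gene cacnb2a held 1087 and 1038 CPM in horizontal-like nuclei, against 457 and 367 CPM in bipolar-like nuclei, the next class, and its log2 ratio over the other 7 classes was 3.04 (2.99 and 3.10). It made up 91.4% of the β UMIs of horizontal-like nuclei, where cacnb2b made up 3.95%. The α2δ copy cacna2d1a ENSABLG00000013701 held 333 and 593 CPM in horizontal-like and 417 and 341 CPM in amacrine-like nuclei, so the order of these classes differed between retinas. The fourth gene was cacng8b, at 175 and 108 CPM. The class had 37 nuclei, all from 1 cluster.

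Ganglion-like nuclei held 12 genes higher and 8 lower of the 33, against 7.22% and 10.2% over all genes. Summed ganglion markers stood at 3968 CPM in ganglion-like nuclei, but also at 3144 CPM in cone-like nuclei. Of 26 ganglion marker genes, 7 were at 0 in their own class. The T-type pore gene CACNA1G, which opens at low voltages, held 1359 and 825 CPM in ganglion-like nuclei and 565 and 458 CPM in amacrine-like nuclei, with no overlap. Its relative cacna1ia held 410 and 139 CPM in ganglion-like and 173 and 130 CPM in amacrine-like nuclei, and these overlapped. CACNA1C ENSABLG00000018715 held 1142 and 759 CPM in ganglion-like and 458 and 475 CPM in amacrine-like nuclei, while the copy CACNA1C ENSABLG00000012179 was the bipolar gene described above. The β genes cacnb3b (168 and 251 CPM, log2 ratio 4.34) and cacnb3a (68.3 and 119 CPM, log2 ratio 3.76) were the most ganglion-like members. In retina 1 they met the minimum of 10 UMIs only with ganglion-like UMIs, 27 against 7 in the other classes for cacnb3b and 11 against 9 for cacnb3a. Their direction there was partly set by the rule. The P/Q-type copy cacna1ab ENSABLG00000005691 held 1098 and 2388 CPM.

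The 2 ganglion-like clusters again differed. The cluster of 32 nuclei led by TMEM196 and irx4a held CACNA1C ENSABLG00000018715 at 1075 CPM and CACNA1G at 1233 CPM, and the cluster of 18 nuclei led by mmp23bb and SCUBE2 held them at 0 and 29.0 CPM. The smaller cluster had 34521 UMIs in all. Its leading calcium channel gene was cacna1ea, at 1172 CPM in retina 1 and without a UMI in retina 2.

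Most members of low level were also highest in the inner retina, but for some the highest class differed between retinas. CACNG7 ENSABLG00000006193 held 53.6 and 104 CPM in amacrine-like nuclei and 35.1 and 108 CPM in horizontal-like nuclei. The R-type pore gene cacna1eb held 77.4 and 17.3 CPM in amacrine-like and 31.0 and 26.4 CPM in ganglion-like nuclei. The β gene cacnb4a held 47.6 and 0 CPM in amacrine-like and 12.4 and 66.0 CPM in ganglion-like nuclei. The γ gene cacng4b stood at 57.6 CPM in amacrine-like nuclei, where 1 nucleus gave 73.9% of its UMIs. Each of the remaining genes, among them all 3 copies of CACNG1 and both of cacng4a, had 17 UMIs or fewer over the 8 classes. Of these, CACNG1 ENSABLG00000010350 had its 1 UMI in cone-like nuclei and CACNA2D3 ENSABLG00000019069 had its 1 UMI in rod-like nuclei.

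**Figure D4:**
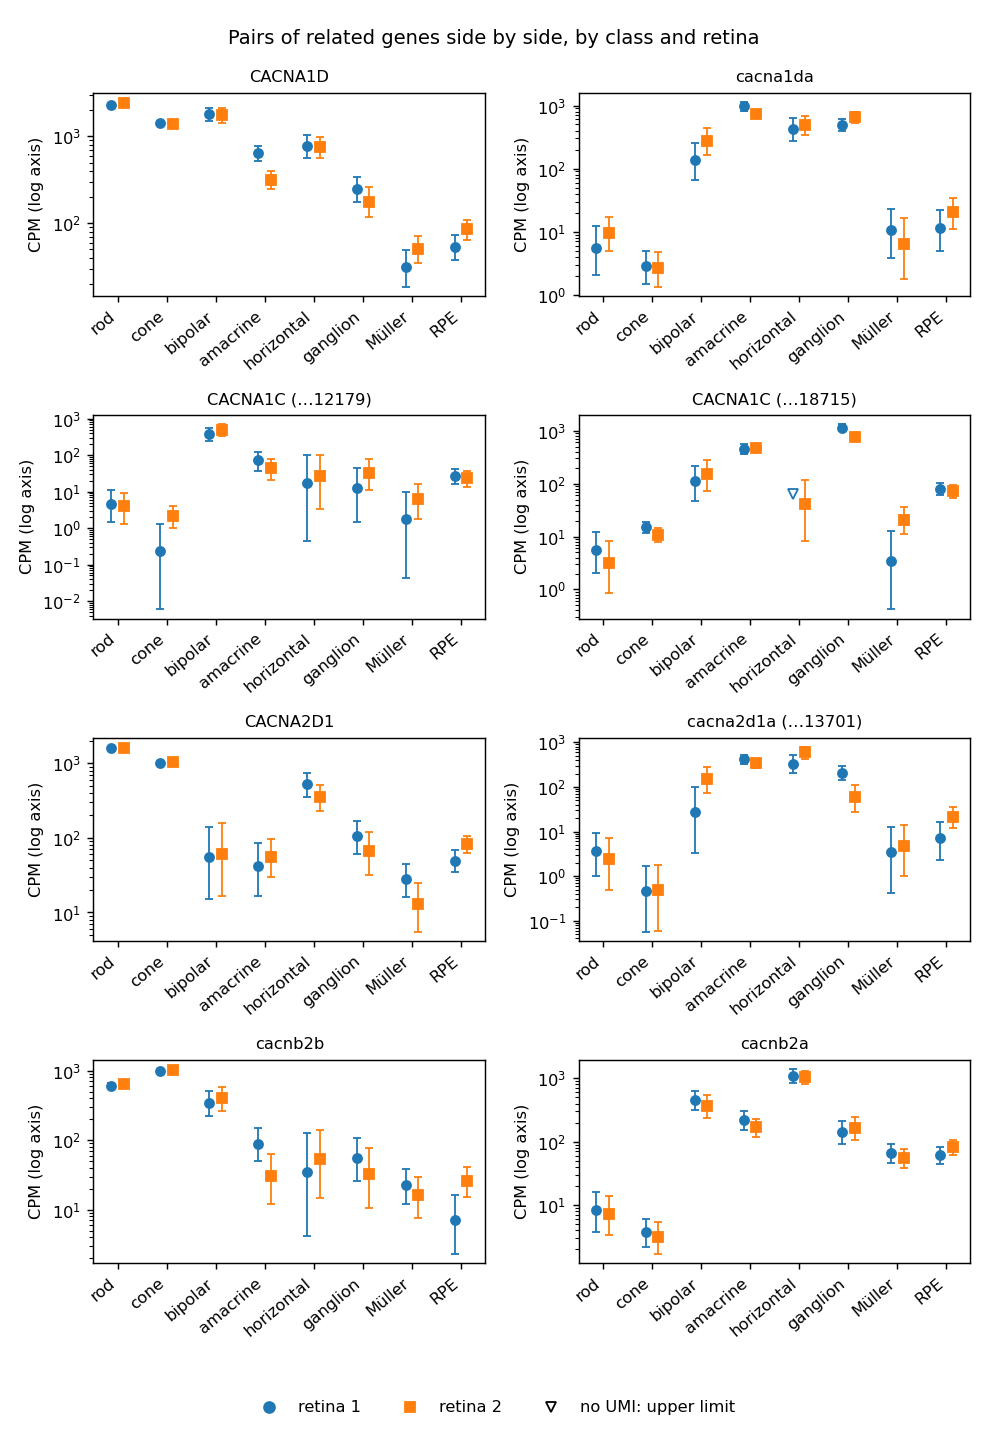
Levels in CPM (log axes) of 4 pairs of related genes by class of nuclei, with a panel for each gene and the members of a pair side by side. CACNA1D and cacnb2b are high in rods and cones, where cacna1da stays at or below 9.61 CPM and cacnb2a at or below 8.31 CPM, and CACNA1C ENSABLG00000012179 peaks in bipolar-like nuclei where CACNA1C ENSABLG00000018715 peaks in ganglion-like nuclei.

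Müller glia and pigment epithelium held little of any member. None of the 33 genes was higher and 30 were lower in Müller glia-like nuclei, against 12.0% higher and 20.9% lower over all genes, and the numbers for RPE-like nuclei were 0 and 30, against 11.7% and 22.6%. Many of the genes called lower met the UMI minimum through the other classes alone, so their direction was largely set by the rule. CACNG3, for example, had 0 UMIs in Müller glia-like and in RPE-like nuclei, against 59 in the other classes. Of 16 genes of the calcium store list, 11 had enough UMIs, 2 were higher and 2 lower in Müller glia-like nuclei, against the same shares over all genes. ITPR2, an inositol trisphosphate receptor gene, held 459 CPM in Müller glia-like nuclei against 13.9 CPM in the mean of the other 7 classes, and itpr1a held 378 against 42.8 CPM. Lower were itpr1b (57.5 against 748 CPM) and the ryanodine receptor gene ryr2b (34.2 against 759 CPM). In Müller glia-like nuclei cacna1ab ENSABLG00000005691 held 104 and 146 CPM and cacna2d4a held 160 and 92.8 CPM. The gene cacna2d4a stood at 458 CPM in the cluster of 25 nuclei led by igfbp1a and TH, whose name was in doubt.

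Of the 5 members with enough UMIs, none was higher and 2 were lower in the 47 tbx5-marked than in the 108 vax-marked Müller glia-like nuclei, against 3.52% and 5.94% over all genes. The gene cacna1ab ENSABLG00000005691 stood at 27.8 and 37.7 CPM with tbx5, against 151 and 206 CPM with vax. The log2 ratio was −2.47 (−3.53 to −1.57) from 11 against 93 UMIs. Of the 11 UMIs, 4 came from 1 nucleus, and the part of free RNA in these levels was not tested. The α2δ gene cacna2d2a stood at 33.4 and 25.1 CPM with tbx5, against 83.8 and 76.0 CPM with vax. The log2 ratio was −1.43 (−2.59 to −0.41), from 10 against 41 UMIs. The 10 UMIs came from 6 nuclei, and 1 nucleus gave 4 of them. These levels of cacna2d2a all lay below its free RNA level given above, and the part of free RNA was not tested. The tbx5-marked nuclei came mostly from 1 cluster of Müller glia, with 45 of 47, in which only 9 nuclei were vax-marked. There the levels of cacna1ab ENSABLG00000005691 were 30.2 CPM with tbx5 and 367 CPM with vax, and the 19 UMIs of the vax-marked ones came from 2 nuclei. Summed amacrine markers over all these nuclei were 402 CPM with tbx5 and 208 CPM with vax, and summed ganglion markers 283 and 163 CPM, and their part in the result was not tested.

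Values of the inner classes depended on leaving out admixed nuclei. With admixed nuclei included, cacna1fa stood at 488 CPM in bipolar-like, 443 CPM in amacrine-like and 231 CPM in Müller glia-like nuclei. CACNA2D4 stood at 1256 CPM in amacrine-like and 1012 CPM in Müller glia-like nuclei, and cacna2d4a at 1329 and 1495 CPM. In 107803 barcodes with fewer than 100 UMIs, which hold mostly free RNA, the levels were 480 CPM for cacna1fa, 1523 CPM for CACNA2D4 and 2176 CPM for cacna2d4a. Rods and cones hardly moved, at 1448 and 68.9 CPM for cacna1fa. The levels of CACNA1D in bipolar-like nuclei were close either way, at 1832 CPM with and 1781 CPM without admixed nuclei. They lay between the levels of rod-like (2364 CPM) and cone-like nuclei (1421 CPM). The part of rod and cone RNA in these levels was not tested, and the closeness does not show how far admixture reached.

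**Figure D5:**
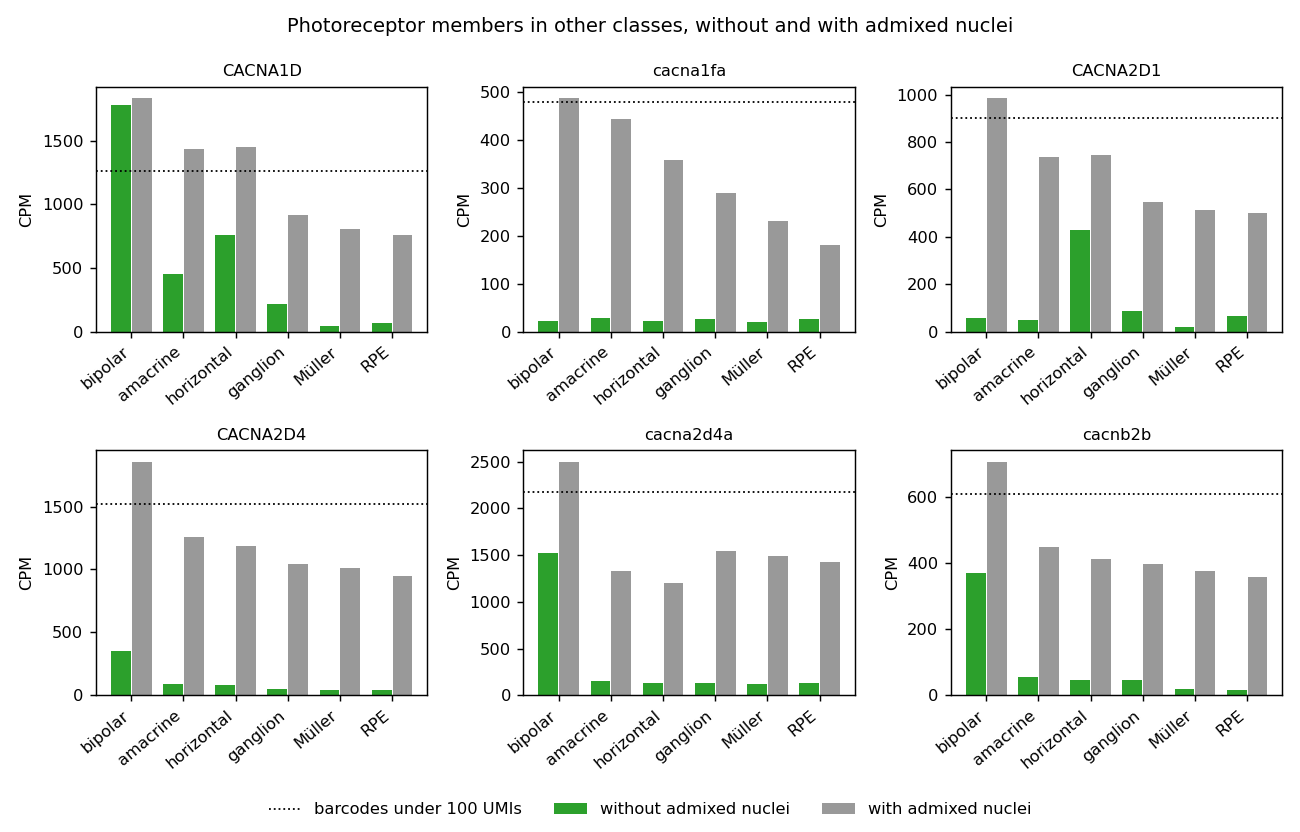
Levels in CPM (linear axes from 0) of the 6 genes higher in photoreceptors in the 6 other classes, without and with admixed nuclei, with the level in barcodes under 100 UMIs as a dotted line. Most bars are far higher once admixed nuclei are included. CACNA1D in bipolar-like nuclei stands at 1781 CPM without and 1832 CPM with them, between its rod and cone levels.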

How the data were processed

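Single-nucleus RNA libraries of whole Anableps anableps retinas were made by combinatorial barcoding, per the labels. The authors deposited a matrix of UMI counts per gene and barcode, with aligner and build not given in the sources used here. Sublibraries number 8 in the labels, and the matrix has 2 sublibraries with 2 retina names that match no label, so values are descriptive and no test was run. Nuclei (at least 500 UMIs) were clustered with scanpy 1.11.5 and leidenalg 0.10.2 (2500 variable genes without the calcium channel genes and the genes used to split classes, 40 components, 15 neighbours, resolution 2) and named by at least 3 markers. Admixed nuclei, defined in the report, also had at least 2 rod or cone marker UMIs. A position mark meant at least 1 UMI of tbx5 or vax genes and none of the other. Counts were summed per class and retina name with Python 3.11.15, numpy 2.4.6, pandas 2.3.3 and scipy 1.17.1, and drawn with matplotlib 3.10.9. Intervals are exact Poisson (CPM), exact conditional binomial (ratios of 2 groups) and Wilson (shares). In ratios a count of 0 was replaced by 3 counts. The minimum of 3 UMIs on the higher side was added after the data were seen. Members were described singly with at least 100 UMIs over the 8 classes or when called in a comparison, with up to 4 of the largest ratios per class, and the others by count; genes leading a cluster are named to identify it. Members and gene lists were chosen with earlier results of these data known. Doublets were not removed, and leaving out the highest 20% of doublet scores was an alternative, beside depth, clustering, admixture, thinning, scaling, UMI minimum, opsin rule and each retina alone. The counting script was tested on simulated data.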

Additional observations from a re-analysis of the deposited data

Results flagged for a closer look

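Among the 3 calcium channel genes with enough UMIs in both splits by position marker, 2 had ratios of opposite sign in cones and Müller glia, in each retina. Over all 3778 genes with enough UMIs in both splits, 679 (18.0%) had opposite signs by the same rule. For cacna1ab ENSABLG00000005691 the log2 ratio of tbx5-marked over vax-marked nuclei was 2.28 in cones and −2.47 in Müller glia. For CACNA2D4 it was 0.20 in cones and −1.60 in Müller glia, where it rested on 5 UMIs from tbx5-marked nuclei, against 23 from vax-marked ones. The difference between cones and Müller glia was not tested for either gene.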

How the results depend on the processing

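No paired analysis was possible because no result came from a test and the retina names match no label. Main counts of called members were 32 genes higher in at least 1 class, 9 for rods over cones and 32 for photoreceptors over inner neurons. They were 2 for lws, 2 for sws1 and 1 for sws2 over rh2 cones. For tbx5 over vax they were 1 in cones and 2 in Müller glia. The share of all genes higher in at least 1 class is not given here, so that count has no background. With admixed nuclei the Müller glia count was 4. Thinned to 1000 UMIs, it was 3 for rods over cones, 1 for lws, 1 for sws1, and 0 for both tbx5 comparisons. With at least 30 UMIs per gene it was 1 for sws1, 0 for cones and 1 for Müller glia by position. Thinning and the higher minimum leave fewer UMIs or genes by construction. With 1 retina alone, which makes the rule looser by construction, counts ran from 34 to 35 for classes, 12 to 13 for rods over cones, 3 to 4 for sws1, 2 to 3 for sws2 and 3 to 4 for Müller glia, and were 34 for photoreceptors, 2 for lws and 3 for cones by position. Of 242 called ratios of single genes, 238 kept their sign with admixed nuclei and 240 when thinned. The reversals with admixed nuclei were in bipolar-like nuclei CACNA2D1 (0.28), CACNA2D4 (0.34) and cacna1fa (0.18), and in amacrine-like nuclei cacna1fa (0.0186). When thinned, cacng5a in ganglion-like (0.48) and cacnb4a in RPE-like nuclei (1.17) reversed, and the cause was not tested. All 242 kept their sign with at least 1000 UMIs per nucleus, at resolution 1, without high doublet scores and under median-of-ratios scaling. Beyond the spread between retinas, 188 of the 242 moved in size with admixed nuclei, 146 when thinned, 50 under median-of-ratios scaling, 33 at resolution 1, 25 without high doublet scores and 16 with at least 1000 UMIs. Of 2 alternatives chosen after seeing the data, an admixture limit of 5% kept 236 of 236 and leaving out doubted clusters kept 204 of 204. Depth limits horizontal-like and bipolar-like nuclei most, where 3 UMIs amount to 22.9 and 21.8 CPM.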
